A study of Homo sapiens with 18 samples.

Results

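RNA sequencing measured 48 genes of mitosis and the spindle checkpoint in 3 human lung cancer cell lines that had been treated with CCS1477 or with its solvent. CCS1477, also called inobrodib, binds the bromodomain of the acetyltransferases p300 and CBP, which act as coactivators of transcription. The genes were listed by name from the known steps of mitosis, with earlier results of these data known. They were sorted into entry (10 genes), kinetochore and checkpoint (15), spindle and chromosomes (12) and exit with cytokinesis (11). All 48 had a gene row in each of the 3 tables, among 20374 distinct genes, and all 48 passed the filter on low values in each line. The groups were CCS1477 at 5 µM for 24 h and DMSO for 24 h in each of H460, a large cell carcinoma line, H2023, labelled as squamous cell carcinoma, and ABC-1, an adenocarcinoma line. Each of the 6 groups had 3 libraries. The submitters describe H460 and H2023 as lines with activated NRF2, the transcription factor of the oxidative stress response, and ABC-1 as wildtype. The dose is the one in the sample descriptions, and the series text gives the same number in millimolar. Nothing in the labels ties the 3 libraries of a group to separate cultures; the p-values therefore rest on spread that could be technical.

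Libraries held 14483980 to 33568196 reads. In H460, CCS1477 libraries held 30502756 to 33568196 reads and DMSO libraries 26652289 to 28263033. Libraries of the other lines held 14483980 to 18261164. The first CCS1477 library of H460 stood apart, with 0.795% of reads from mitochondrial genes, against 1.77% to 2.06% in the other 5 H460 libraries. Calls in H460 that change without it are given with both values beside the gene. Of the 5 epithelial markers, 4 had a row in H460 and 5 in H2023 and ABC-1. Of 6 squamous markers, only TP63 had a row in H2023. It stood at 0.243 to 0.586 CPM in CCS1477 libraries and 1.37 to 2.14 CPM in DMSO libraries. These markers therefore do not bear out the squamous label of H2023. In ABC-1 only NKX2-1 of 5 alveolar adenocarcinoma markers had a row, at 0.343 to 0.877 CPM in CCS1477 libraries and 1.15 to 1.66 CPM in DMSO libraries. Of the squamous markers, 2 had a row in ABC-1. They summed to 65.3 to 69.2 CPM in CCS1477 libraries and 147.4 to 155.5 CPM in DMSO libraries. Summed markers of leukocytes, fibroblasts and endothelium stayed at or below 31.7 CPM in each library, with fibroblast markers at 8.00 to 8.91 CPM in CCS1477 libraries against 29.3 to 31.7 CPM in DMSO libraries of H460 and at 22.6 to 23.6 CPM against 6.84 to 8.03 CPM in ABC-1. The 5 epithelial markers summed to 8179 to 8227 CPM in CCS1477 libraries against 5897 to 6359 CPM in DMSO libraries of ABC-1, to 4473 to 4536 CPM against 5452 to 5584 CPM in H2023, and to 2793 to 3629 CPM against 2472 to 2520 CPM in H460. Leukocyte markers summed to 17.4 to 17.7 CPM in CCS1477 libraries against 26.0 to 30.2 CPM in DMSO libraries of H2023. The part of these markers in the results was not tested.

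A cell enters mitosis when cyclin B and its kinase CDK1 are switched on by CDC25 phosphatases, with PLK1 and Aurora A (AURKA) helping the switch. Chromosomes then attach to the spindle through kinetochores, and the spindle checkpoint (BUB1, BUB1B, BUB3, MAD2L1, TTK) holds back the anaphase-promoting complex until every kinetochore is attached. That complex, with CDC20 and the ubiquitin-conjugating enzymes UBE2C and UBE2S, then marks securin (PTTG1) and cyclin B for destruction, separase (ESPL1) cuts cohesin, and the cell divides. Most of these genes are transcribed late in the cell cycle by FOXM1 and by MYBL2 bound to the MuvB complex, which reads a promoter element called the CHR, often beside CCAAT boxes bound by NF-Y.

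RefSeq promoters (GRCh38.p14, 250 bases before to 50 after the start) were available for 41 of the 48 genes, in 51 windows of 300 bases. A CHR, searched as TTTGAA or TTCGAA on both strands, stood in 66.7% of these windows, against 16.4% of all 35116 windows. CCAAT on either strand stood in 76.5%, against 34.6% of all windows, and 56.9% held both, against 6.38%. The E2F letters TTTCCCGC, TTTCGCGC, TTTGCCGC or TTTGGCGC stood in 7.84%, against 3.31%. Matches of different motifs can share at most 1 end base. Among the 41 genes, the median log2 change in ABC-1 was -1.64 over the 31 with a CHR and -1.41 over the 10 without one. In H2023 these medians were -0.46 and -0.33, and in H460 they were -0.09 and -0.14. With and without CCAAT (34 and 7 genes) the medians were -1.63 and -1.62 in ABC-1, -0.46 and -0.49 in H2023 and -0.09 and -0.06 in H460. The windows printed here, each the 250 bases before the start, belong to genes at the ends of the range in some line, with CHR and CCAAT letters in capitals (ATTGG is CCAAT on the other strand). ESPL1 had the lowest change in ABC-1 and ECT2 was among the 4 lowest in H460 and H2023, while BUB1 had the highest change in H460 and UBE2S the highest in H2023 and ABC-1.
ESPL1: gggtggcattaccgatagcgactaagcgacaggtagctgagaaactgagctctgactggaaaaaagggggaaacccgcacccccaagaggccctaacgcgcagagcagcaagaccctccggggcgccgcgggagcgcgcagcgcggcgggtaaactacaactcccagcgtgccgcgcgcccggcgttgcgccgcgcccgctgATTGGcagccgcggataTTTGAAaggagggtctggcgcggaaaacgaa
ECT2: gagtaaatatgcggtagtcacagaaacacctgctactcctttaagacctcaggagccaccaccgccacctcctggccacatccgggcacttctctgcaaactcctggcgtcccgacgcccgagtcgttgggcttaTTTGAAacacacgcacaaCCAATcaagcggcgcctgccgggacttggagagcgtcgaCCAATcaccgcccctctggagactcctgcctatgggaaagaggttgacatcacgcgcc
BUB1: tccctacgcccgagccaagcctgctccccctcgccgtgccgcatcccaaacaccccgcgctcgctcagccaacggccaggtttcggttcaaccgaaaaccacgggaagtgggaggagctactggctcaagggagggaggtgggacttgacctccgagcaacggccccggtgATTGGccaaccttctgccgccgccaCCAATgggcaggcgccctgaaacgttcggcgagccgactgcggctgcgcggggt
UBE2S: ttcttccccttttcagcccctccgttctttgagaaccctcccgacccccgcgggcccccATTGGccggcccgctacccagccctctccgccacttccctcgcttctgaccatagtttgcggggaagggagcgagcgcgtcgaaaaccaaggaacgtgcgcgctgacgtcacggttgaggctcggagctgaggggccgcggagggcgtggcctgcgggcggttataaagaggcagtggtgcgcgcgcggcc
The ESPL1 window (chr12:53268049-53268298, plus strand) holds a CHR at -31 and a CCAAT on the other strand at -48. The ECT2 window (chr3:172750476-172750725, plus strand) holds a CHR at -115 and CCAAT at -97 and -58. Further ECT2 matches, not in capitals, are CCAAT letters that cross the start (-2 to 3) and CHR letters after it, at base 35. The BUB1 window (chr2:110678064-110678313, minus strand) holds CCAAT letters at -79 and -54, and its CHR letters begin just after the start, at base 2, outside the printed stretch. The UBE2S window (chr19:55407789-55408038, minus strand) holds CCAAT letters on the other strand at -191 and had no CHR letters in its 300 bases. These matches describe letters and not bound sites.

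The mitotic genes took a smaller share of the reads after CCS1477 in ABC-1 and H2023 (CPM, a gene's recovered reads scaled to a common library total, summed over the 48 genes). In ABC-1 the sum was 2396, 2494 and 2355 CPM in CCS1477 libraries, against 6902, 7038 and 6853 CPM in DMSO libraries, a ratio of 0.348. In H2023 it was 5891, 5927 and 5898 CPM in CCS1477 libraries, against 7898, 8063 and 7818 CPM in DMSO libraries, a ratio of 0.745. The groups did not overlap in either line. In H460 it was 6288, 6718 and 6565 CPM in CCS1477 libraries, against 6616, 6613 and 6655 CPM in DMSO libraries. The ratio was 0.984, and the groups overlapped in CPM. CPM rest on library totals, a scaling under which all tested H460 genes had a median log2 change of 0.07, against 0.00 as deposited. In the deposited values of H460, all CCS1477 libraries lay below all DMSO libraries for 27 of the 48 genes and above them for 5. In bulk RNA, fewer cells in mitosis and less RNA of these genes per cell cannot be told apart.

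**Figure D1:**
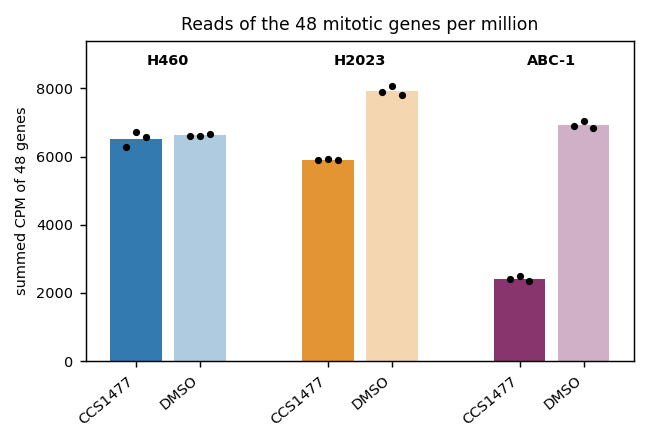
CPM summed over the 48 mitotic genes (y axis) in each line, CCS1477 left of DMSO; bars are group means and points are the 3 libraries. ABC-1 CCS1477 libraries lie between 2355 and 2494 CPM, while the H460 groups overlap on this CPM scale.

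All 48 genes fell in ABC-1 at an adjusted p under 0.05 (limma, Benjamini-Hochberg over all tested genes), where 66.1% of the 13543 genes tested were called, 32.6% lower and 33.5% higher. Their median log2 fold change was -1.63, against 0.01 over all tested genes, and 45 of 48 had a log2 change of -1 or lower. In H2023, 44 fell, 2 rose (UBE2S and BUB1) and CCNB2 and CENPE were not called, where 60.6% of 14572 genes were called, 31.9% lower and 28.6% higher. The median there was -0.49, against -0.01 over all tested genes, and 3 genes (AURKA, ECT2 and UBE2C) had a log2 change of -1 or lower. In H460, 25 fell, 4 rose (BUB1, ANLN, KIF2C and AURKB) and 19 were not called, where 56.1% of 13516 genes were called, 27.9% lower and 28.2% higher. The H460 median was -0.14, against 0.00 over all tested genes, and no gene had a log2 change of -1 or lower. The H460 split depended on the libraries and on scaling: 9 rose and 26 fell without the first CCS1477 library, and 9 rose and 18 fell with scaling by library totals. That scaling raises the median of all tested genes in H460 by 0.07, and CPM values carry it while log2 changes do not. Groups of libraries did not overlap in the deposited values for 48 genes in ABC-1 (70.4% of all tested genes), 46 in H2023 (65.2%) and 32 in H460 (64.0%).

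**Figure D2:**
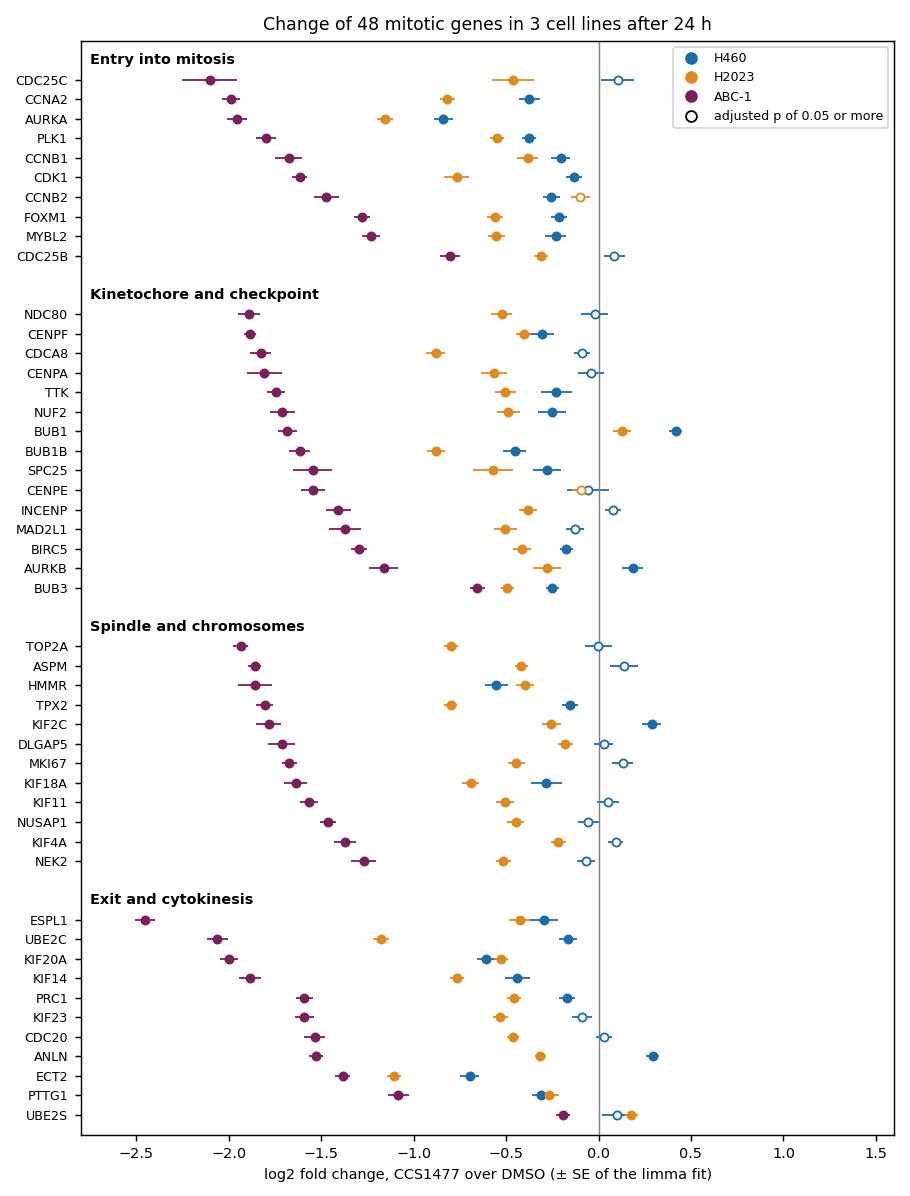
Log2 fold change, CCS1477 over DMSO, with its SE (x axis) for each of the 48 genes (rows, by stage) in 3 lines; open points have an adjusted p of 0.05 or more. In ABC-1 every point lies below 0, while H460 points lie from -0.84 (AURKA) to 0.42 (BUB1).

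Among the cyclin and CDK genes of entry, CDK1, the kinase that drives mitosis, fell in all 3 lines, though its H460 call depended on the settings. In ABC-1 it had 54.3, 53.7 and 51.9 CPM in CCS1477 libraries, against 161, 157 and 154 CPM in DMSO libraries (-1.62 ± 0.04, adjusted p = 8.96e-11, log2 change ± SE, here and below). In H2023 it had 71.9, 89.3 and 78.9 CPM in CCS1477 libraries, against 129.7, 133 and 131 CPM in DMSO libraries (-0.77 ± 0.07, adjusted p = 3.19e-06). In both lines the groups stood apart. In H460 it had 145, 143 and 153 CPM in CCS1477 libraries, against 150.0, 153 and 156 CPM in DMSO libraries (-0.13 ± 0.04, adjusted p = 0.0301). The groups overlapped there in CPM, and the call was lost with scaling by library totals (adjusted p = 0.253). It was also lost in one fit over all 18 libraries (adjusted p = 0.0579). The same held without DMSO library 2 or 3 or CCS1477 library 2 (adjusted p = 0.0880 to 0.107). CCNB1, the cyclin B that activates CDK1, had 27.4, 23.8 and 26.7 CPM in CCS1477 libraries, against 85.5, 81.2 and 73.7 CPM in DMSO libraries in ABC-1 (-1.68 ± 0.07, adjusted p = 5.43e-09). H2023 gave 87.4, 94.2 and 96.4 CPM in CCS1477 libraries, against 115, 126 and 109.9 CPM in DMSO libraries (-0.38 ± 0.06, adjusted p = 1.98e-04), and in H460 95.2, 86.8 and 90.9 CPM in CCS1477 libraries, against 96.3, 99.6 and 103 CPM in DMSO libraries (-0.21 ± 0.05, adjusted p = 0.00798). The groups did not overlap in any of the 3 lines. Transcript rows, which were left out, held 44.9% to 52.3% of the reads of CCNB1 and 48.7% to 55.5% of those of MAD2L1. CCNA2, the cyclin A of S phase and early mitosis, fell in all 3 lines, by 1.99, 0.82 and 0.37 on the log2 scale in ABC-1, H2023 and H460. CCNB2 fell in ABC-1 (-1.47) and H460 (-0.26) and had -0.10 in H2023.

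The CDC25 phosphatases, which remove the inhibitory phosphates from CDK1, differed from each other in ABC-1. CDC25C had 2.46, 2.67 and 1.88 CPM in CCS1477 libraries, against 9.62, 10.6 and 10.9 CPM in DMSO libraries (-2.10 ± 0.15, adjusted p = 2.85e-07), the largest fall of the entry genes there, at the lowest level of the 48 genes in each line (2.85 to 3.73 CPM per kilobase of exon in DMSO libraries). The values in H2023 were 8.14, 10.0 and 9.76 CPM in CCS1477 libraries, against 13.7, 12.7 and 11.1 CPM in DMSO libraries (-0.46 ± 0.11, adjusted p = 0.00481), and in H460 10.5, 11.2 and 10.4 CPM in CCS1477 libraries, against 8.67, 9.57 and 10.3 CPM in DMSO libraries (0.10 ± 0.09, adjusted p = 0.344). The groups were apart in all 3 lines in CPM, by a wide gap in ABC-1 only, and the H460 change was not called. CDC25B had 55.0, 56.4 and 57.3 CPM in CCS1477 libraries, against 92.5, 100.1 and 90.7 CPM in DMSO libraries in ABC-1 (-0.80 ± 0.05, adjusted p = 1.47e-07), the smallest fall of the entry genes, and its groups stood apart.

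The entry kinases fell in every line, and AURKA had the lowest change of the 48 genes in H460. AURKA, which matures the centrosomes and activates PLK1, had 27.4, 29.5 and 26.2 CPM in CCS1477 libraries, against 109, 104 and 99.2 CPM in DMSO libraries in ABC-1 (-1.96 ± 0.06, adjusted p = 2.21e-10). In H2023 it had 52.6, 52.3 and 54.9 CPM in CCS1477 libraries, against 111, 117 and 116 CPM in DMSO libraries (-1.16 ± 0.04, adjusted p = 5.56e-09), and in H460 81.9, 92.2 and 87.3 CPM in CCS1477 libraries, against 153, 142 and 149.5 CPM in DMSO libraries (-0.84 ± 0.05, adjusted p = 7.94e-06). All CCS1477 libraries lay below all DMSO libraries in each line, and processed pseudogenes of AURKA could share its reads. PLK1, the kinase of mitotic entry and centrosomes, had 28.0, 27.7 and 25.5 CPM in CCS1477 libraries, against 91.9, 92.9 and 88.0 CPM in DMSO libraries in ABC-1 (-1.80 ± 0.05, adjusted p = 3.33e-10). H2023 gave 147, 146 and 139 CPM in CCS1477 libraries, against 198, 207 and 206 CPM in DMSO libraries (-0.55 ± 0.04, adjusted p = 5.29e-07), and in H460 153, 151 and 144 CPM in CCS1477 libraries, against 184, 184 and 187 CPM in DMSO libraries (-0.38 ± 0.04, adjusted p = 8.33e-05). The groups stood apart in each line. PLK1 shares exon sequence with genes on the other strand, and the strand use of the counting is not given in the sources used here.

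The transcription factors of the late cell cycle fell too. They fell by less than the median of the 48 genes in ABC-1 (-1.63). In H2023 and H460 they fell by more than that line's median (-0.49 and -0.14). FOXM1, a forkhead factor of G2 and M phase genes, had 63.1, 67.3 and 67.7 CPM in CCS1477 libraries, against 153, 158 and 151 CPM in DMSO libraries in ABC-1 (-1.28 ± 0.04, adjusted p = 7.95e-10). The values in H2023 were 177, 159 and 175 CPM in CCS1477 libraries, against 239, 242 and 245 CPM in DMSO libraries (-0.56 ± 0.04, adjusted p = 1.12e-06), and in H460 119, 124 and 115 CPM in CCS1477 libraries, against 135, 128 and 132 CPM in DMSO libraries (-0.21 ± 0.04, adjusted p = 0.00263). No groups overlapped. MYBL2, the B-MYB factor that works with MuvB, had 111, 119.6 and 104 CPM in CCS1477 libraries, against 259.8, 252 and 242 CPM in DMSO libraries in ABC-1 (-1.23 ± 0.05, adjusted p = 2.39e-09). In H2023 it had 61.4, 66.3 and 64.6 CPM in CCS1477 libraries, against 90.8, 89.2 and 92.0 CPM in DMSO libraries (-0.55 ± 0.04, adjusted p = 1.48e-06), and in H460 191, 171 and 166 CPM in CCS1477 libraries, against 198, 191 and 201 CPM in DMSO libraries (-0.23 ± 0.06, adjusted p = 0.00831). The groups stood apart in ABC-1 and H2023, and in H460 1 CCS1477 library reached the range of the DMSO libraries in CPM.

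**Figure D3:**
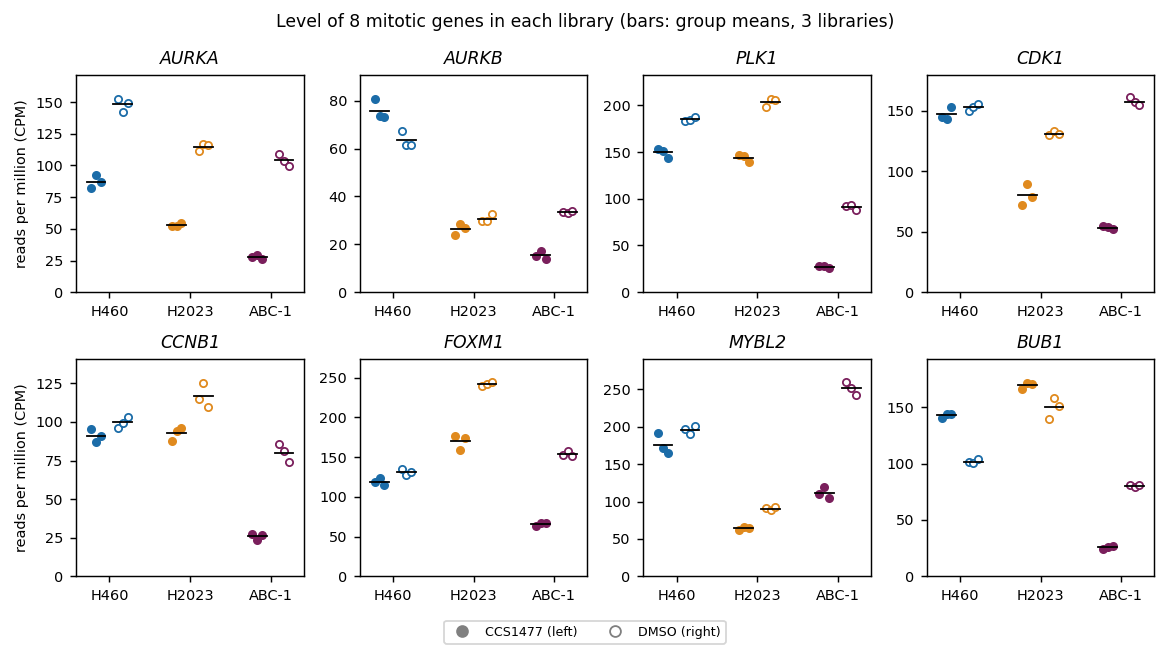
Level in CPM (y axis, from 0) of 8 genes in every library, with CCS1477 (filled) left of DMSO (open) for each line and group means as bars. BUB1 is higher after CCS1477 in H460 (141 to 144 CPM, against 100.1 to 104 CPM in DMSO libraries) and lower in ABC-1.

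Of the checkpoint genes, BUB1 went in opposite directions between lines. BUB1, the checkpoint kinase that also marks centromeres, had 24.2, 26.2 and 27.1 CPM in CCS1477 libraries, against 80.6, 78.9 and 80.8 CPM in DMSO libraries in ABC-1 (-1.68 ± 0.05, adjusted p = 3.68e-10). H2023 gave 166, 171 and 171 CPM in CCS1477 libraries, against 139.9, 158 and 151 CPM in DMSO libraries (0.13 ± 0.05, adjusted p = 0.042), and in H460 141, 144 and 144 CPM in CCS1477 libraries, against 101, 100.1 and 104 CPM in DMSO libraries (0.42 ± 0.04, adjusted p = 4.48e-05). The CCS1477 libraries were the lower ones in ABC-1 and the higher ones in the other lines, without overlap in any line. BUB1 has a processed pseudogene that could share its reads, and transcript rows, which were left out, held 15.6% to 17.2% of them. The H2023 call ended without the filter on low levels (adjusted p = 0.0506), with transcript rows added (adjusted p = 0.0567) and without any of 4 of the 6 libraries in turn (DMSO 1 and 3, CCS1477 2 and 3; adjusted p = 0.0700 to 0.171). BUB1B, its paralog BUBR1, fell in all 3 lines (-1.62, -0.88 and -0.45 in ABC-1, H2023 and H460). BUB1B shares exon sequence with another gene on the same strand, and BUB3 has a processed pseudogene that could share its reads. TTK (the MPS1 kinase) and BUB3 also fell in all 3, and the BUB3 change was the smallest of the kinetochore and checkpoint genes in ABC-1 (-0.66). BUB3 had 73.3, 73.0 and 74.6 CPM in CCS1477 libraries, against 110.0, 113 and 111 CPM in DMSO libraries there (-0.66 ± 0.04, adjusted p = 8.03e-08), with the groups apart. MAD2L1 fell in ABC-1 (-1.37) and H2023 (-0.50) and had -0.13 in H460 (adjusted p = 0.0601, and -0.14 with adjusted p = 0.0479 without the first CCS1477 library). The H460 fall of TTK (-0.23, adjusted p = 0.0448) was lost in 7 alternatives, among them leaving out any DMSO library or CCS1477 library 2 (adjusted p = 0.0636 to 0.125).

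The chromosomal passenger complex, which corrects wrong attachments, also split in H460. AURKB, its kinase Aurora B, had 15.3, 17.4 and 14.0 CPM in CCS1477 libraries, against 33.7, 33.3 and 33.8 CPM in DMSO libraries in ABC-1 (-1.16 ± 0.08, adjusted p = 1.97e-07). The values in H2023 were 23.7, 28.3 and 26.8 CPM in CCS1477 libraries, against 29.9, 29.7 and 32.5 CPM in DMSO libraries (-0.28 ± 0.08, adjusted p = 0.00824), and in H460 80.9, 73.6 and 73.2 CPM in CCS1477 libraries, against 67.2, 61.6 and 61.6 CPM in DMSO libraries (0.18 ± 0.06, adjusted p = 0.0214). CCS1477 libraries were the lower ones in ABC-1 and H2023 and the higher ones in H460, without overlap, and the H460 call was lost without DMSO library 2 (adjusted p = 0.0762) or 3 (adjusted p = 0.0789). CDCA8 (borealin) had 43.6, 47.6 and 48.4 CPM in CCS1477 libraries, against 80.5, 83.8 and 84.0 CPM in DMSO libraries in H2023 (-0.88 ± 0.05, adjusted p = 1.72e-07), among the 4 lowest changes there. In H460 it had 47.7, 49.6 and 47.2 CPM in CCS1477 libraries, against 49.0, 47.7 and 49.4 CPM in DMSO libraries (-0.09 ± 0.04, adjusted p = 0.11), and in ABC-1 it fell by 1.83. The groups were apart in H2023 and overlapped in CPM in H460. BIRC5 (survivin) fell in all 3 lines (-1.29, -0.41 and -0.17 in ABC-1, H2023 and H460), and INCENP, the scaffold of the complex, fell in ABC-1 (-1.41) and H2023 (-0.38) and had 0.08 in H460, not called.

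The 6 kinetochore and centromere genes fell together in ABC-1, with a median of -1.76. NDC80, NUF2 and SPC25, subunits of the complex that grips microtubules, fell by 1.89, 1.71 and 1.55 there and by 0.52, 0.49 and 0.57 in H2023. In H460 NUF2 (-0.25) and SPC25 (-0.28) fell and NDC80 was not called (-0.02). The H460 call of NUF2 was lost in 3 alternatives (adjusted p up to 0.0777) and that of SPC25 in 1 (adjusted p = 0.0523). CENPF, a large kinetochore protein of late G2, fell by 1.88, 0.40 and 0.31 in ABC-1, H2023 and H460. CENPA, the centromere histone, fell by 1.81 in ABC-1 and by 0.57 in H2023 and was not called in H460 (-0.04). Its exons share a strand with another gene. CENPE, a kinetochore kinesin, was called in ABC-1 (-1.54) and in neither of the other lines.

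Among spindle genes, TOP2A, the enzyme that untangles chromosomes, had 132, 143 and 128 CPM in CCS1477 libraries, against 487, 502 and 492 CPM in DMSO libraries in ABC-1 (-1.94 ± 0.04, adjusted p = 4.56e-11). In H2023 it had 447, 462 and 454 CPM in CCS1477 libraries, against 771, 781 and 735 CPM in DMSO libraries (-0.80 ± 0.04, adjusted p = 2.35e-08), and in H460 553, 667 and 654 CPM in CCS1477 libraries, against 589, 595 and 591 CPM in DMSO libraries (-0.00 ± 0.07, adjusted p = 0.997). The groups were apart in ABC-1 and H2023, and the first CCS1477 library of H460 lay below the DMSO libraries and the other 2 above them. Without that first library TOP2A was called higher in H460 (0.09, adjusted p = 0.0400). HMMR, a spindle and hyaluronan-binding protein, was among the 4 lowest changes of H460, at 54.3, 61.6 and 61.9 CPM in CCS1477 libraries, against 81.7, 80.5 and 85.6 CPM in DMSO libraries (-0.55 ± 0.06, adjusted p = 1.36e-04), with no overlap. KIF2C, a kinesin that takes microtubules apart, was higher in H460, at 54.9, 50.1 and 49.8 CPM in CCS1477 libraries, against 40.6, 39.3 and 40.5 CPM in DMSO libraries (0.29 ± 0.05, adjusted p = 0.00186). KIF2C had 18.4, 18.9 and 17.9 CPM in CCS1477 libraries, against 65.4, 62.8 and 56.5 CPM in DMSO libraries in ABC-1 (-1.78 ± 0.07, adjusted p = 1.37e-09), with CCS1477 above in H460 and below in ABC-1. DLGAP5, a spindle assembly factor, had the third highest change past the threshold in H2023, at 79.8, 80.9 and 80.5 CPM in CCS1477 libraries, against 87.3, 89.5 and 86.6 CPM in DMSO libraries (-0.18 ± 0.04, adjusted p = 0.00225), which was still lower after CCS1477. In H460, 8 of the 12 spindle genes were not called, among them MKI67 (Ki-67, the coat of mitotic chromosomes, 0.13), ASPM (0.14) and KIF11, the motor that separates the poles (0.05). Both MKI67 and ASPM were called higher in H460 with scaling by library totals (0.21 each, adjusted p = 0.0150 and 0.0413) and without the first CCS1477 library (0.17 and 0.23, adjusted p = 0.0126 and 3.48e-04). Without that library KIF11 (0.12, adjusted p = 0.0243) and KIF4A, a chromosome kinesin (0.12, adjusted p = 0.0248, against 0.09 and adjusted p = 0.0777 with it), were called higher too.

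Exit genes held the lowest and the highest changes of ABC-1. ESPL1, separase, had 25.2, 29.2 and 27.2 CPM in CCS1477 libraries, against 140.1, 146 and 145 CPM in DMSO libraries in ABC-1 (-2.45 ± 0.05, adjusted p = 5.27e-11). H2023 gave 42.1, 41.2 and 44.2 CPM in CCS1477 libraries, against 51.7, 57.9 and 56.0 CPM in DMSO libraries (-0.43 ± 0.06, adjusted p = 8.40e-05), and in H460 58.1, 53.3 and 50.4 CPM in CCS1477 libraries, against 56.9, 64.7 and 67.7 CPM in DMSO libraries (-0.30 ± 0.08, adjusted p = 0.0118). In CPM, the groups overlapped in H460 only. UBE2C, the enzyme that starts ubiquitin chains for the anaphase-promoting complex, had 25.3, 26.1 and 22.7 CPM in CCS1477 libraries, against 102, 98.1 and 98.3 CPM in DMSO libraries in ABC-1 (-2.06 ± 0.06, adjusted p = 1.79e-10). The values in H2023 were 31.2, 31.6 and 31.5 CPM in CCS1477 libraries, against 68.8, 68.3 and 69.4 CPM in DMSO libraries (-1.18 ± 0.04, adjusted p = 5.23e-09), and in H460 73.2, 77.3 and 68.7 CPM in CCS1477 libraries, against 75.8, 79.1 and 78.6 CPM in DMSO libraries (-0.16 ± 0.05, adjusted p = 0.0238). The groups stood apart in ABC-1 and H2023 and overlapped in CPM in H460. The H460 call was lost with scaling by library totals (adjusted p = 0.160). It was also lost without DMSO library 2 or 3 or CCS1477 library 3 (adjusted p = 0.0678 to 0.0823). UBE2S, the enzyme that lengthens those chains, had 107, 114 and 111 CPM in CCS1477 libraries, against 124, 122 and 119 CPM in DMSO libraries in ABC-1 (-0.19 ± 0.04, adjusted p = 8.71e-04). In H2023 it had 435, 445 and 462 CPM in CCS1477 libraries, against 386, 381 and 377 CPM in DMSO libraries (0.18 ± 0.04, adjusted p = 0.0012), and in H460 265, 219.6 and 209.6 CPM in CCS1477 libraries, against 209, 198 and 206 CPM in DMSO libraries (0.10 ± 0.08, adjusted p = 0.324). CCS1477 libraries were the higher ones in H2023 and the lower ones in ABC-1. In H460 they were higher in CPM by a narrow gap. The H460 change was not called and was -0.0020 without the first CCS1477 library. UBE2C and UBE2S have processed pseudogenes that could share reads. CDC20, the activator of the complex, fell in ABC-1 (-1.53) and H2023 (-0.46), and PTTG1, securin, fell in all 3 lines (-1.08, -0.27 and -0.31 in ABC-1, H2023 and H460).

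Of the cytokinesis genes, ECT2, the exchange factor that switches on RhoA at the cleavage furrow, fell in all 3 lines. It had 90.1, 97.0 and 89.7 CPM in CCS1477 libraries, against 229, 233 and 232 CPM in DMSO libraries in ABC-1 (-1.38 ± 0.04, adjusted p = 2.26e-10). H2023 gave 173, 184 and 175 CPM in CCS1477 libraries, against 369.8, 371 and 362 CPM in DMSO libraries (-1.10 ± 0.04, adjusted p = 2.02e-09), and in H460 120.1, 134 and 134 CPM in CCS1477 libraries, against 199, 199 and 199.8 CPM in DMSO libraries (-0.70 ± 0.05, adjusted p = 1.67e-05). The groups stood apart in each line, and its H460 fall was the largest after that of AURKA. KIF20A, a kinesin of the midzone, had 25.2, 26.8 and 27.1 CPM in CCS1477 libraries, against 102, 104 and 100.3 CPM in DMSO libraries in ABC-1 (-2.00 ± 0.05, adjusted p = 8.17e-11) and 64.7, 71.5 and 64.0 CPM in CCS1477 libraries, against 94.5, 97.4 and 97.9 CPM in DMSO libraries in H460 (-0.61 ± 0.05, adjusted p = 3.55e-05). Those groups did not overlap, and KIF20A shares exon sequence with genes on the other strand. ANLN, anillin, the scaffold of the contractile ring, had 354, 364 and 366 CPM in CCS1477 libraries, against 279.9, 278 and 283 CPM in DMSO libraries in H460 (0.29 ± 0.04, adjusted p = 2.28e-04). In ABC-1 it had 337, 358 and 329 CPM in CCS1477 libraries, against 935, 957 and 938 CPM in DMSO libraries (-1.53 ± 0.04, adjusted p = 1.04e-10), and in H2023 402, 416 and 402 CPM in CCS1477 libraries, against 490.0, 486 and 487 CPM in DMSO libraries (-0.31 ± 0.03, adjusted p = 8.39e-06). The CCS1477 libraries were the higher ones in H460 and the lower ones in the others, without overlap. KIF14, PRC1 and KIF23, which build the midzone, had log2 changes of -1.89, -1.59 and -1.59 in ABC-1, all called.

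The stage medians lay close together in ABC-1 and H2023. In H460 they ran from -0.22 for entry genes to 0.01 for spindle genes, of which 8 of 12 were not called. In ABC-1 the median log2 change was -1.65 for entry, -1.62 for kinetochore and checkpoint, -1.69 for spindle and -1.59 for exit genes. In H2023 it was -0.55, -0.49, -0.45 and -0.46 in the same order, and in H460 -0.22, -0.13, 0.01 and -0.17. The lowest median was that of spindle genes in ABC-1 and that of entry genes in H2023 and H460, and differences between stages were not tested. The spread within a stage could be wider than the gaps between stage medians: exit genes of ABC-1 spanned -2.45 (ESPL1) to -0.19 (UBE2S). In H460 the counts lower were 8 of 10 for entry, 7 of 15 for kinetochore and checkpoint, 3 of 12 for spindle and 7 of 11 for exit genes, where 27.9% of all tested genes were lower; the spindle count is near that share. Untreated level per kilobase showed little relation to the change across the 48 genes (Pearson's r of 0.03 in ABC-1, -0.11 in H2023 and -0.10 in H460, genes sharing the same libraries).

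**Figure D4:**
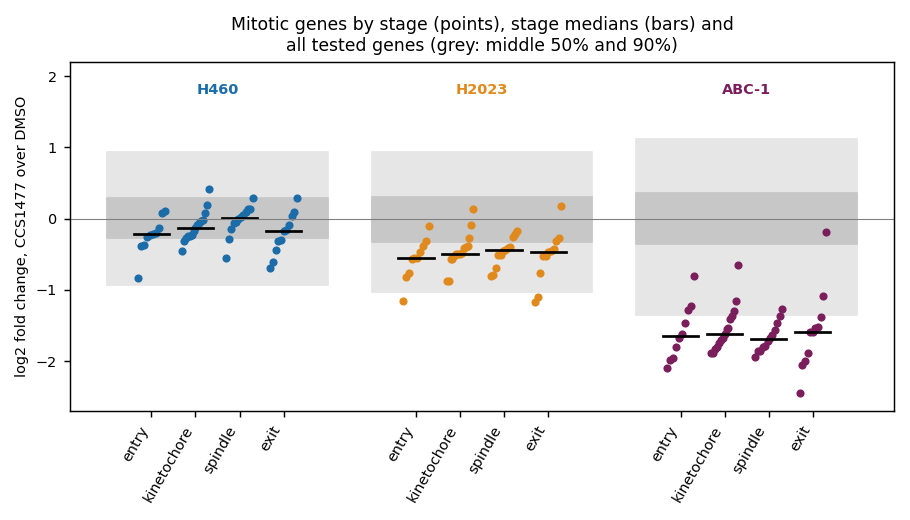
Log2 fold change, CCS1477 over DMSO (y axis), of the mitotic genes by stage in 3 lines; points are genes, bars are stage medians, and grey bands hold the middle 50% and 90% of all tested genes. In ABC-1 the stage medians lie from -1.69 to -1.59, below the 90% band, whose lower edge is at -1.35.

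The change of each gene was lowest in ABC-1. The differences were tested in one fit over the 18 libraries and the 11757 genes that passed the filter on low values in every line. H460 against ABC-1 differed for 48 of 48 genes, each higher in H460, with a median difference of 1.47 log2 units, where 50.6% of all tested genes were called and 26.6% were higher. H2023 against ABC-1 also differed for 48 of 48, each higher in H2023, with a median of 1.10, where 44.8% were called and 21.2% were higher. H460 against H2023 differed for 36, each higher in H460, with a median of 0.39, and 12 were not called, where 30.3% were called and 18.4% were higher. The calls of TTK, PLK1 and CDC25C in this pair were lost when some libraries were left out (adjusted p up to 0.102, 0.0932 and 0.0533), that of TTK with scaling by relative log expression as well (adjusted p = 0.0572). Without the first CCS1477 library of H460, NUF2 (0.32, adjusted p = 0.00607), CENPF (0.18, adjusted p = 0.0140) and DLGAP5 (0.25, adjusted p = 0.0323) were called higher in H460 and UBE2S lower (-0.18, adjusted p = 0.0107), the call of PLK1 was lost (adjusted p = 0.0713), and 39 genes differed. These comparisons share the libraries of a line. For 43 genes the order was ABC-1 lowest, then H2023, then H460, and the exceptions were CCNB2, HMMR, KIF20A, PTTG1 and UBE2S. Lines were fitted on tables that the authors normalized separately, so a difference here is a difference between within-line changes.

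The largest differences from ABC-1 belonged to CDC25C, ESPL1 and BUB1. For H460 against ABC-1 they were 2.21 ± 0.17 (adjusted p = 7.68e-09), 2.16 ± 0.10 (adjusted p = 8.29e-12) and 2.10 ± 0.06 (adjusted p = 7.23e-14) for these genes in that order. For H2023 against ABC-1 they were 1.64 ± 0.17 (adjusted p = 4.52e-07), 2.03 ± 0.10 (adjusted p = 2.62e-11) and 1.81 ± 0.06 (adjusted p = 7.30e-13). Between H460 and H2023 the largest were those of UBE2C (1.01 ± 0.07, adjusted p = 6.26e-09), TOP2A (0.80 ± 0.08, adjusted p = 6.83e-07) and CDCA8 (0.79 ± 0.07, adjusted p = 9.10e-08), each with the lower change in H2023.

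Other genes of cell division, taken from lists of known complexes, were mostly lower in ABC-1, where 32.6% of all tested genes were lower and 33.5% were higher. Of 22 other spindle and cytokinesis genes 22 fell (median -1.57), among them RACGAP1, the partner of KIF23 and ECT2 (-1.74 ± 0.05, adjusted p = 2.20e-10). All 8 condensin genes fell (median -1.15), as did all 8 of cohesin and its protection (-0.62), 13 of 14 outer kinetochore genes (-0.88, with NSL1, a subunit of the MIS12 complex, higher at 0.34 ± 0.06, adjusted p = 2.18e-04) and 16 of 17 of the inner centromere (-1.07). Of the 18 genes of the anaphase-promoting complex and its regulators, 8 fell and 4 rose (median -0.07), counts nearer to the shares over all tested genes. The falls there included ANAPC1, its largest subunit (-0.65 ± 0.05, adjusted p = 2.63e-07), and FBXO5, the inhibitor EMI1 (-0.95 ± 0.07, adjusted p = 5.79e-07), while ANAPC16, a small subunit, rose (0.46 ± 0.05, adjusted p = 2.08e-05). Of 14 entry regulators 12 fell and 1 rose (median -1.24), among them WEE1, the kinase that inhibits CDK1 (-1.35 ± 0.05, adjusted p = 1.61e-09). Of 10 DREAM and MuvB genes 8 fell (median -0.82). Of 32 DNA replication genes 32 fell (median -1.27). In H2023, 30 of the 32 replication genes fell (median -0.77), a lower median than that of the 48 mitotic genes, and in H460 21 fell and 2 rose (median -0.25). In H460, the entry regulator CCNF, cyclin F, rose (0.67 ± 0.05, adjusted p = 2.52e-05) and PBK, a mitotic kinase, fell (-0.80 ± 0.05, adjusted p = 5.85e-06).

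**Figure D5:**
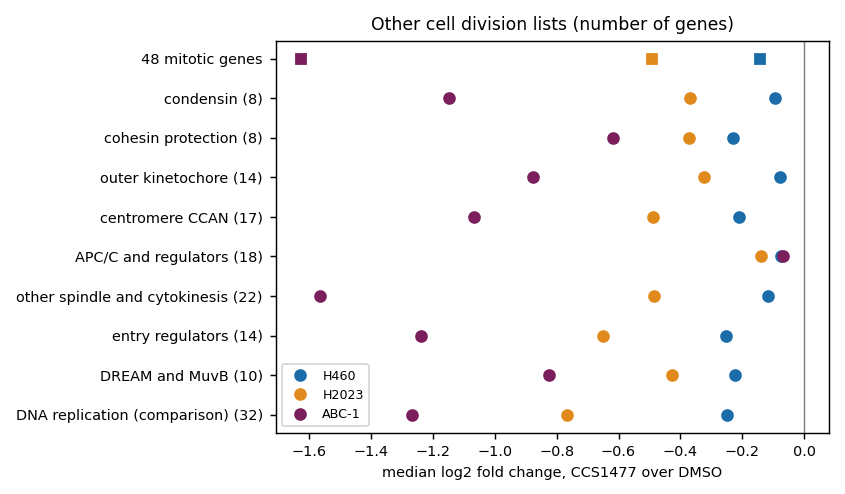
Median log2 fold change, CCS1477 over DMSO (x axis), of the 48 mitotic genes (squares) and of other lists of cell division genes (circles, number of genes in brackets) in 3 lines. In ABC-1 the medians lie between -1.63 and -0.62 except for the anaphase-promoting complex list, at -0.07.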

How the data were processed

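The 18 libraries were prepared from total RNA with a directional MGI kit for a DNBSEQ instrument, per the labels' protocols. The genome build is GRCh38, per the submitters' processing notes, with aligner and counter not given in the sources used here. The deposited tables hold log2 values, 1 table per line. The values are log2 of reads divided by a factor per library, plus 4: all 100% of values up to 1000 reads gave whole reads within 0.1. Gene rows were used, and transcript rows, 9.19% to 10.7% of the reads, were left out. CPM are recovered reads over library totals.

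Within a line, genes reaching 1 CPM in 3 or more of its 6 libraries were tested with limma-trend (limma 3.58.1, R 4.3.3) on the deposited log2 values, two-sided, with Benjamini-Hochberg adjustment over all tested genes of the line and a threshold of 0.05. Differences between lines came from a fit over all 18 libraries. The script was tested on simulated data. Exon lengths and neighbours are from GENCODE 29. Members and lists were chosen with earlier results of these data known. Library values were printed for 8 genes always, for the 4 lowest and 3 highest called changes in each line and for the 3 largest differences of each pair; other genes are given by change and count. Alternatives were 2 other scalings, limma-voom, other filters and constants, added transcript rows, a replicate block and each library left out. For the changes within a line, the fit over all 18 libraries was a further alternative.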

Additional observations from a re-analysis of the deposited data

Results flagged for a closer look

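Differences between lines in the change after CCS1477 that passed the test in the fit over the 18 libraries were singled out for the 3 genes with the largest value in each pair. For H460 against ABC-1 these were CDC25C at 2.21, ESPL1 at 2.16 and BUB1 at 2.10 log2 units. For H2023 against ABC-1 they were ESPL1 at 2.03, BUB1 at 1.81 and CDC25C at 1.64. For H460 against H2023 they were UBE2C at 1.01, TOP2A at 0.80 and CDCA8 at 0.79.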

How the results depend on the processing

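The calls of the 48 genes in ABC-1, and in both pairs with ABC-1, kept their direction and side of the threshold under all alternatives run. In H2023 the call of BUB1 was lost in 6 settings, so 1 gene rose with no filter on low values, with transcript rows added and without 4 of the libraries in turn (1 to 2). In H460, 9 genes lost a call in some setting (AURKB, CDK1, KIF18A, NUF2, PRC1, SPC25, TPX2, TTK and UBE2C). There 8 genes gained one (ASPM, CDC25B, INCENP, KIF11, KIF4A, MAD2L1, MKI67 and TOP2A). In that line 9 rose with scaling by library totals, and 3 to 9 when each library was left out. Scaling by library totals gave medians in H460 of -0.069 (all), -0.15 (entry), -0.055 (kinetochore), 0.087 (spindle, against 0.01) and -0.10 (exit), in H2023 of -0.44 (all), -0.50 (entry), -0.39 (spindle) and -0.41 (exit), and in ABC-1 of -1.57 (all), -1.56 (kinetochore) and -1.53 (exit). With transcript rows added the medians were -0.48 (H2023, exit) and -1.55 (ABC-1, kinetochore). The cause of these shifts was not tested. When each library was left out, medians ranged over -0.20 to -0.16 (H460, exit), -0.47 to -0.41 (H2023, spindle), -0.48 to -0.45 (H2023, exit) and -1.66 to -1.59 (ABC-1, kinetochore). Changes not called as deposited that crossed 0 when a library was left out were in H460 CDC20 (-0.0045 to 0.058), NDC80 (-0.067 to 0.040), CENPE (-0.15 to 0.090), TOP2A (-0.048 to 0.086, the upper end called), UBE2S (-0.0020 to 0.16), DLGAP5 (-0.019 to 0.072) and NUSAP1 (-0.088 to 0.0012), and for H460 against H2023 CENPE (-0.053 to 0.18) and PTTG1 (-0.081 to 0.0080). With scaling by library totals, changes of uncalled H460 genes turned sign for NDC80 (0.052), CENPA (0.033), CENPE (0.015), TOP2A (0.073), NEK2 (0.0064) and NUSAP1 (0.018). Same-numbered libraries deviated together weakly in H460 (r of 0.0106 to 0.0973) and H2023 (0.0340 to 0.0440). In ABC-1 they did not (-0.104 to -0.0433). In H2023 each correlated best with its own number. As these correlations were small, the numbers were not taken as pairs. The replicate block called 7356, 8806 and 8768 genes in H460, H2023 and ABC-1, against 7584, 8824 and 8949; for the 48 genes, 29, 46 and 48. In H460 it ended the call of TTK (adjusted p = 0.0681) and added MKI67 (adjusted p = 0.0370); for H460 against H2023, where 3 genes lost and 4 gained a call in some setting, it ended TTK (adjusted p = 0.0674) and added DLGAP5 (adjusted p = 0.0440). At 1 CPM the counting error was 17.3% to 26.3%.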
